A study of Homo sapiens with 27 samples.

Results

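The genes described here encode the translation initiation factors (EIF symbols) and elongation factors (EEF symbols) of THP-1 cells, a line from a human monocytic leukaemia, without the kinases EIF2AK1 to EIF2AK4. Every row of both count tables whose Ensembl identifier carried such a symbol was taken, which gave 68 members of 20453 genes. The 8 members whose mRNAs are known as 5′ terminal oligopyrimidine (TOP) mRNAs (EEF1A1, EEF1B2, EEF1D, EEF1G, EEF2, EIF3E, EIF3F and EIF3H) were set beside the other 60. The cells had been made macrophage-like with PMA, a phorbol ester, at 10 ng/ml for 24 h and then received 1 of 3 treatments for 3 h. The LPS+Dex group received 100 ng/ml LPS, a component of the bacterial outer membrane, together with 1 µM of the synthetic glucocorticoid dexamethasone (Dex). The LPS group received 100 ng/ml LPS, and the vehicle group received the solvent. All groups carried the PMA step, and Dex without LPS is not among the groups compared. Ribosome profiling, which counts the mRNA fragments covered by ribosomes (footprints), was done in 5 libraries a treatment, and poly(A) RNA-seq of RNA from the same cells in 4 libraries a treatment.

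Initiation factors bring the small ribosomal subunit to the mRNA cap, scan to a start codon and join the large subunit, and elongation factors deliver aminoacyl-tRNA and move the ribosome along. TOP mRNAs begin with a C followed by a run of pyrimidines directly at the cap, and their translation is known to follow the kinase complex mTORC1, through the cap-binding repressor LARP1 and the eIF4E-binding proteins. In macrophages, LPS signalling is known to feed into mTORC1 and into the kinases that phosphorylate eIF4E, while glucocorticoids act through a nuclear receptor that represses many inflammatory genes.

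The start of the mRNA defines a TOP mRNA, so the bases around the listed RefSeq start sites (GRCh38.p14) are printed for the TOP members that the promoter table held and for 2 other members with a start of the same form. Each run has 30 bases, of which 10 lie before the start site and 20 from it on, read 5′ to 3′ on the gene's own strand. Capitals mark a C at the start site and the unbroken C or T bases after it.
EEF1A1: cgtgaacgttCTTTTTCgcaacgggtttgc
EEF1B2: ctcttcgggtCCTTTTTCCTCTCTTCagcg
EEF2: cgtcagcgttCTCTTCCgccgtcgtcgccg
EIF3F: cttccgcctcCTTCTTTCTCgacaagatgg
EEF1G: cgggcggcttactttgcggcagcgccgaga
EIF3M: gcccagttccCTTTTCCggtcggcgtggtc
EIF4A2: gcgccgctgtCTTTTCagtcgggcgctgag
The runs of EEF1A1 (chr6:73521013-73521042), EEF2 (chr19:3985444-3985473) and EEF1G (chr11:62573872-62573901) lie on the minus strand. Those of EEF1B2 (chr2:206159885-206159914), EIF3F (chr11:7987327-7987356), EIF3M (chr11:32583821-32583850) and EIF4A2 (chr3:186783567-186783596) lie on the plus strand. A C at the listed start followed by at least 4 C or T bases, searched on the sense strand only, was found at 4 of 5 TOP members with a listed promoter and at 9 of 50 other members with one. The same form stood at 1404 of 27305 genes of the table, or 5.142%, counting a gene, like a member, where any of its listed starts had it. EEF1B2 had it at the second of its listed starts, and the listed start of EEF1G was an A. Such a match describes the listed start, not the start used in these cells.

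Footprint libraries had totals of 11.5 to 24.4 M counts (1 M is 1000000 counts) under LPS+Dex, 20.8 to 26.1 M under LPS and 15.4 to 24.3 M under vehicle. For RNA the totals were 19.0 to 21.7 M under LPS+Dex, 20.9 to 24.9 M under LPS and 21.8 to 30.7 M under vehicle. The footprint libraries numbered 4 stood apart: the members held 0.988%, 1.12% and 1.11% of all counts in those of LPS+Dex, LPS and vehicle, against 1.57% to 1.63%, 1.66% to 1.74% and 1.36% to 1.39% in the other libraries of the same treatments. Of the macrophage markers, CD68 lay at 538 to 718 CPM (counts per 1000000 counts of the library) and SPI1 at 706 to 1080 CPM in RNA, while CD14 (7.32 to 36.2 CPM) and LYZ (10.9 to 14.8 CPM) were low. The T cell markers CD3D, CD3E and CD3G stayed at or below 0.163 CPM in RNA. Of the fibroblast markers, COL3A1 lay at or below 0.177 CPM in RNA, while COL1A1 lay at 5.05 to 25.6 CPM and PDGFRA at 1.76 to 15.5 CPM in RNA, and PDGFRA at 7.45 to 137 CPM in footprints. The part of these markers in the results was not tested. Vehicle RNA libraries 1 and 2 also stood apart from 3 and 4. Their disagreement, as chi-square per degree of freedom, was 11.7 and 13.9 within these pairs and 30.1 to 81.8 between them. LPS RNA library 2 stood at 33.0 and 34.0 from libraries 3 and 4. On the same measure the footprint libraries numbered 4 stood at 141 to 344 from the others of their treatment. Those others stood at 3.83 to 22.4 from each other. The part of the RNA splits in the RNA and footprint-per-mRNA changes was not tested. The labels do not say that replicates were separate cultures, so p-values measure the spread between these libraries, which may be technical.

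LPS raised most translation factors in mRNA and in footprints. A filter on low counts left 62 of the 68 members in each assay, all 8 TOP members and 54 others. In RNA, 39 of 62 rose and 5 fell with LPS against vehicle at an edgeR adjusted p under 0.05, where 62.2% of all 13327 genes were called (28.6% higher and 33.6% lower). In footprints, 37 rose and 4 fell, where 52.6% of all 12197 genes were called (25.4% higher and 27.2% lower). The median member changed by 0.33 in RNA and 0.36 in footprints on the log2 scale, against -0.05 and -0.04 over all genes tested. Library scaling makes every change relative to the average gene, and a bulk library cannot tell more expressing cells from more RNA per cell. The 6 members that did not pass the filter were EIF4E1B, EIF5AL1, EIF2S3B, EIF3CL and the readthrough genes EEF1AKMT4-ECE2 and EEF1E1-BLOC1S5, which had no count in any library.

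All 8 TOP members rose in footprints with LPS against vehicle, with a median log2 change of 0.85 against 0.33 for the 54 others. In RNA, 7 of 8 rose, with a median of 0.42 against 0.30. EIF3F missed the test in RNA at 0.18 ± 0.10 (SE, edgeR adjusted p = 0.14).

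**Figure D1:**
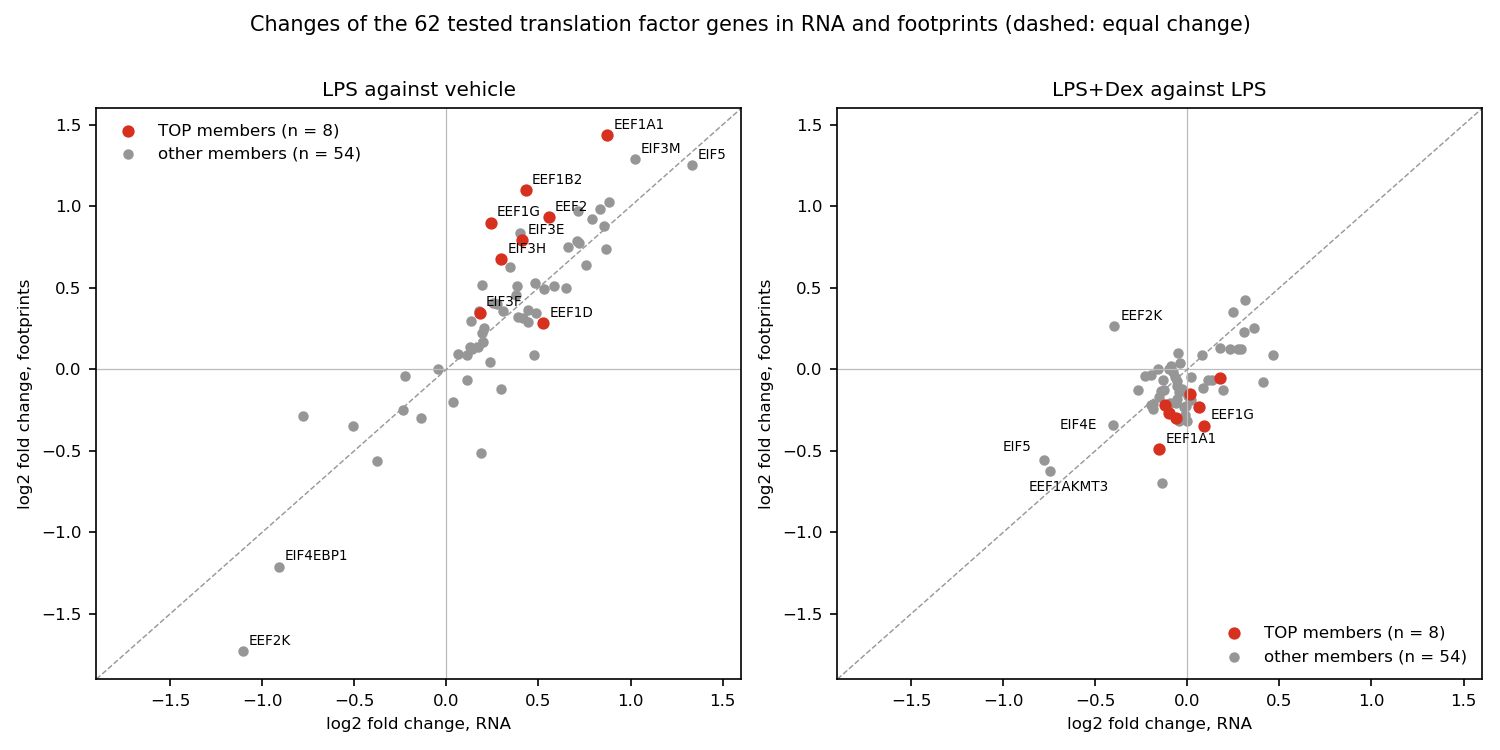
Log2 fold change in RNA (x axis) against log2 fold change in footprints (y axis) for the 62 tested members, with LPS against vehicle on the left and LPS+Dex against LPS on the right. With LPS, 7 of 8 TOP members (red) lie above the dashed line of equal change and EEF1D lies below it, and with LPS+Dex all 8 lie below 0 on the footprint axis.

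The elongation factors that carry aminoacyl-tRNA and move the ribosome rose in footprints. EEF1A1, which brings aminoacyl-tRNA to the ribosome, had 312, 251, 273, 307 and 361 CPM of footprints in the LPS libraries, against 131, 118, 111, 76.5 and 120 CPM in the vehicle libraries. Its mRNA stood at 69.6, 78.6, 74.9 and 71.0 CPM with LPS, against 41.7, 42.2, 39.6 and 37.0 CPM with vehicle. Every LPS library lay above every vehicle library in both assays. The footprint change was 1.43 ± 0.14 on the log2 scale (edgeR adjusted p = 5.4e-07), and the mRNA change 0.87 ± 0.07, which is 1.83-fold (edgeR adjusted p = 1.4e-07). EEF1A1 has many near-identical processed copies in the genome, and how reads with several matches were counted is not given in the sources used here, so its counts are uncertain. EEF1A2, the paralog of muscle and brain, fell by 0.78 ± 0.14 in RNA (edgeR adjusted p = 0.00032) at a low level of 5.88 ± 0.591 CPM with LPS and 10.1 ± 1.72 CPM with vehicle (SD, n = 4 each).

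EEF1B2, EEF1D and EEF1G form the exchange factor that reloads eEF1A with GTP, and their footprints rose by unequal amounts. EEF1B2 footprints stood at 114, 119, 133, 102 and 99.8 CPM with LPS, against 55.1, 55.0, 62.3, 40.1 and 52.3 CPM with vehicle. EEF1G footprints stood at 184, 174, 189, 199 and 173 CPM with LPS, against 95.0, 102, 97.1, 107 and 92.0 CPM with vehicle. In both genes the groups did not overlap. The log2 changes were 1.10 ± 0.12 for EEF1B2 (edgeR adjusted p = 1.8e-06) and 0.90 ± 0.07 for EEF1G (edgeR adjusted p = 9.5e-08). EEF1D footprints stood at 173, 165, 150, 152 and 172 CPM with LPS, against 140, 130, 134, 132 and 132 CPM with vehicle. The groups lay close but apart, at 0.28 ± 0.06 (edgeR adjusted p = 0.0012).

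In mRNA the groups of EEF1G overlapped and those of EEF1B2 did not. EEF1G mRNA was 303, 338, 310 and 280 CPM with LPS, against 297, 282, 228 and 235 CPM with vehicle. Its change of 0.24 ± 0.09 passed the test (edgeR adjusted p = 0.028), but not without vehicle libraries 3 or 4 or LPS libraries 2 or 3, each left out in turn (adjusted p 0.080, 0.086, 0.081 and 0.053). EEF1B2 mRNA was 88.6, 87.0, 91.0 and 80.8 CPM with LPS, against 65.7, 68.9, 61.6 and 61.4 CPM with vehicle, all LPS libraries being higher. EEF1D mRNA rose by 0.52 ± 0.14 (edgeR adjusted p = 0.0045), more than its footprints, though the difference between its changes did not pass the test (edgeR adjusted p = 0.71).

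EEF2, the translocase that moves the ribosome by a codon, had 6070, 5390, 5230, 5170 and 5810 CPM of footprints with LPS, against 3140, 2880, 2800, 3070 and 2580 CPM with vehicle. Its mRNA stood at 3700, 3560, 3870 and 3470 CPM with LPS, against 2710, 2140, 2650 and 2420 CPM with vehicle. No LPS library overlapped a vehicle library in either assay, and the changes were 0.94 ± 0.10 in footprints (edgeR adjusted p = 1.3e-06) and 0.56 ± 0.08 in RNA (edgeR adjusted p = 1.9e-05). EIF5A, a hypusine-bearing factor that helps the ribosome through proline-rich stretches, rose by 0.74 ± 0.09 in footprints and 0.87 ± 0.11 in RNA. Its paralog EIF5A2 did not pass in either assay. EEFSEC, which delivers selenocysteine-tRNA, fell by 0.56 ± 0.13 in footprints (edgeR adjusted p = 0.0017) and by 0.38 ± 0.09 in RNA (edgeR adjusted p = 0.0022).

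**Figure D2:**
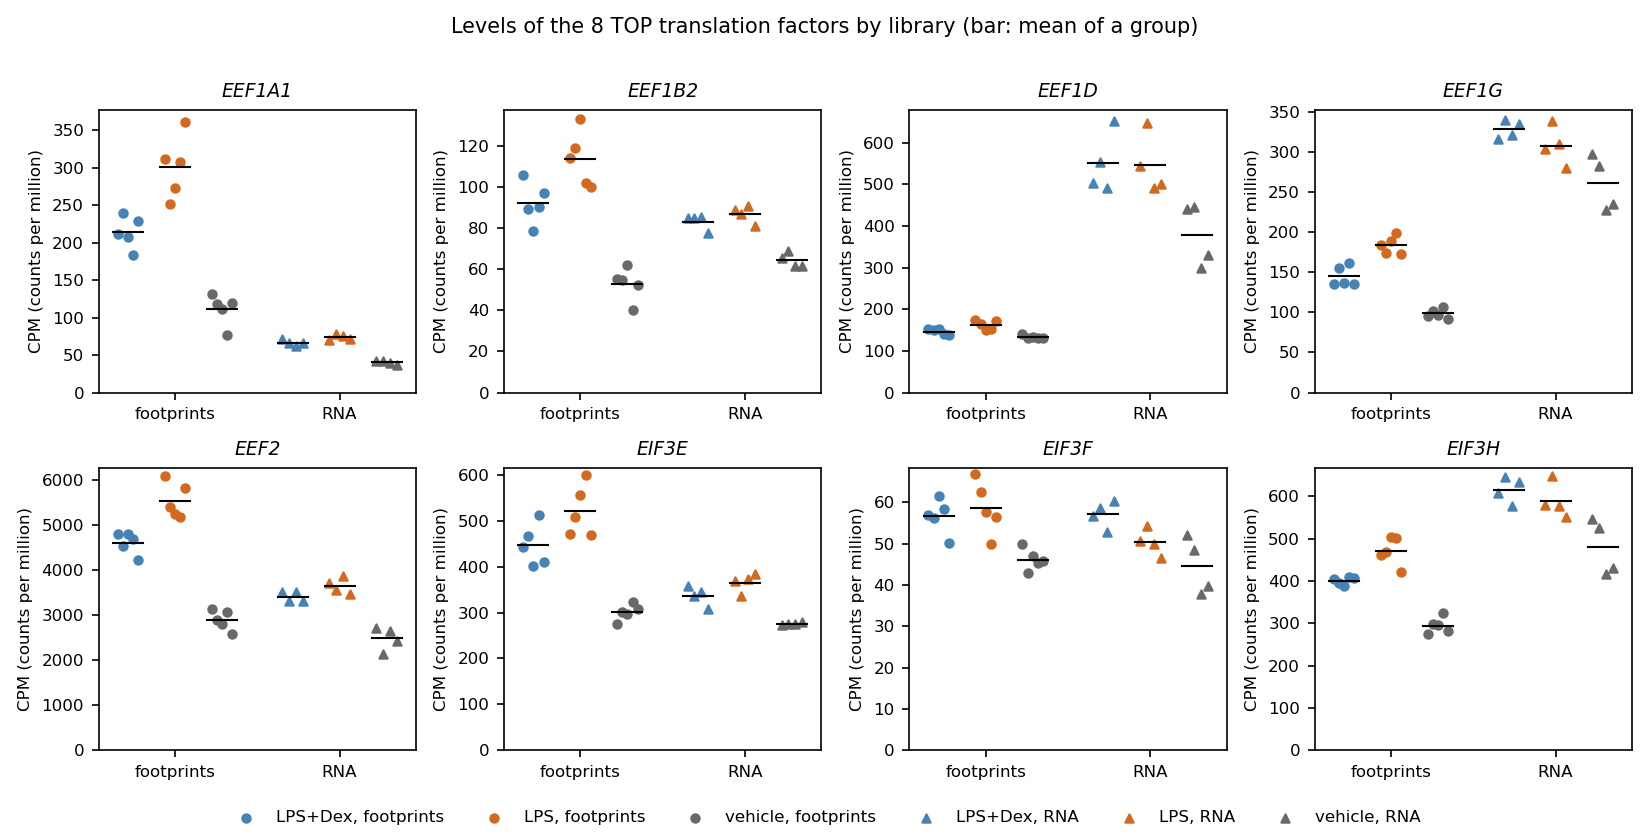
CPM of the 8 TOP members in every library, with footprints (circles) left of RNA (triangles) in each panel and LPS+Dex, LPS and vehicle from left to right; bars are group means and the y axis starts at 0. The EEF1A1 footprints run from 251 to 361 CPM with LPS and from 76.5 to 131 CPM with vehicle, while the EEF1D footprints stay between 130 and 173 CPM.

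Footprints per mRNA (translational efficiency, TE) were tested by subtracting the change in RNA from that in footprints, in a fit over all 27 libraries. With LPS against vehicle, 2 of 62 members rose and 0 fell, where 1.78% of all 11944 genes were called (1.02% higher and 0.762% lower). Both were TOP members and subunits of the eEF1 exchange factor, EEF1B2 at 0.70 ± 0.15, or 1.62-fold (edgeR adjusted p = 0.013), and EEF1G at 0.69 ± 0.12, or 1.61-fold (edgeR adjusted p = 0.0012). EEF1A1 (0.59 ± 0.17, edgeR adjusted p = 0.072), EIF3E (0.41 ± 0.11, 0.057), EIF3H (0.41 ± 0.12, 0.071) and EEF2 (0.41 ± 0.12, 0.083) had positive values that did not pass. EIF3F stood at 0.20 ± 0.13 and EEF1D at -0.21 ± 0.16. The median over the TOP members was 0.41, against 0.05 over the other members and 0.01 over all genes. Of the 54 other members edgeR called 0 in TE, and 5 had an unadjusted p under 0.05.

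The number of members called in TE depended on how the libraries numbered alike were treated and on the test used. DESeq2, with all libraries and no block, called 7 members, and the share of all genes it called is not reported here. Deviations of same-numbered footprint libraries correlated over 0.1 in 15 of 15 pairs, but in 3 of 12 pairs without number 4, so the pairing rests mostly on that number. With the number as a replicate block, 8 members were called, 7 higher and 1 lower, where 7.35% of all genes were called. Leaving out the libraries numbered 4 also gave 8, where 4.72% of all genes were called. In both fits 6 of 8 TOP members rose, EEF1A1 (0.60 ± 0.14 with the block and 0.49 ± 0.14 without number 4), EEF1B2, EEF1G, EEF2 (0.41 ± 0.09 and 0.43 ± 0.11), EIF3E (0.41 ± 0.09 and 0.39 ± 0.10) and EIF3H (0.41 ± 0.09 and 0.43 ± 0.12). EIF3L, an eIF3 subunit outside the TOP group, also rose (0.36 ± 0.08 and 0.36 ± 0.09). The edgeR adjusted p of the added TOP members lay at 0.0083, 0.0049, 0.0072 and 0.0088 for EEF1A1, EEF2, EIF3E and EIF3H with the block. The member that fell was EEF2K, at -0.60 ± 0.17 with the block (edgeR adjusted p = 0.026) and -0.79 ± 0.18 without number 4 (edgeR adjusted p = 0.012). The TOP grouping was made knowing that TOP mRNAs of these libraries rose in footprints, so it is not independent evidence.

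A value per footprint library shows how far the TOP members stood from the others. The median log2 footprints per mRNA of the TOP members minus that of the other members, with the mean RNA of the treatment as denominator, was 0.56, 0.62, 0.60, 0.48 and 0.38 in the LPS libraries, against 0.18, 0.00, 0.23, 0.01 and 0.10 in the vehicle libraries. All LPS libraries lay above all vehicle libraries. The LPS+Dex libraries stood at 0.38, 0.26, 0.23, 0.48 and 0.27 and overlapped the LPS libraries. The values of a treatment share the same RNA mean, so they show the spread of footprints but not that of RNA.

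**Figure D3:**
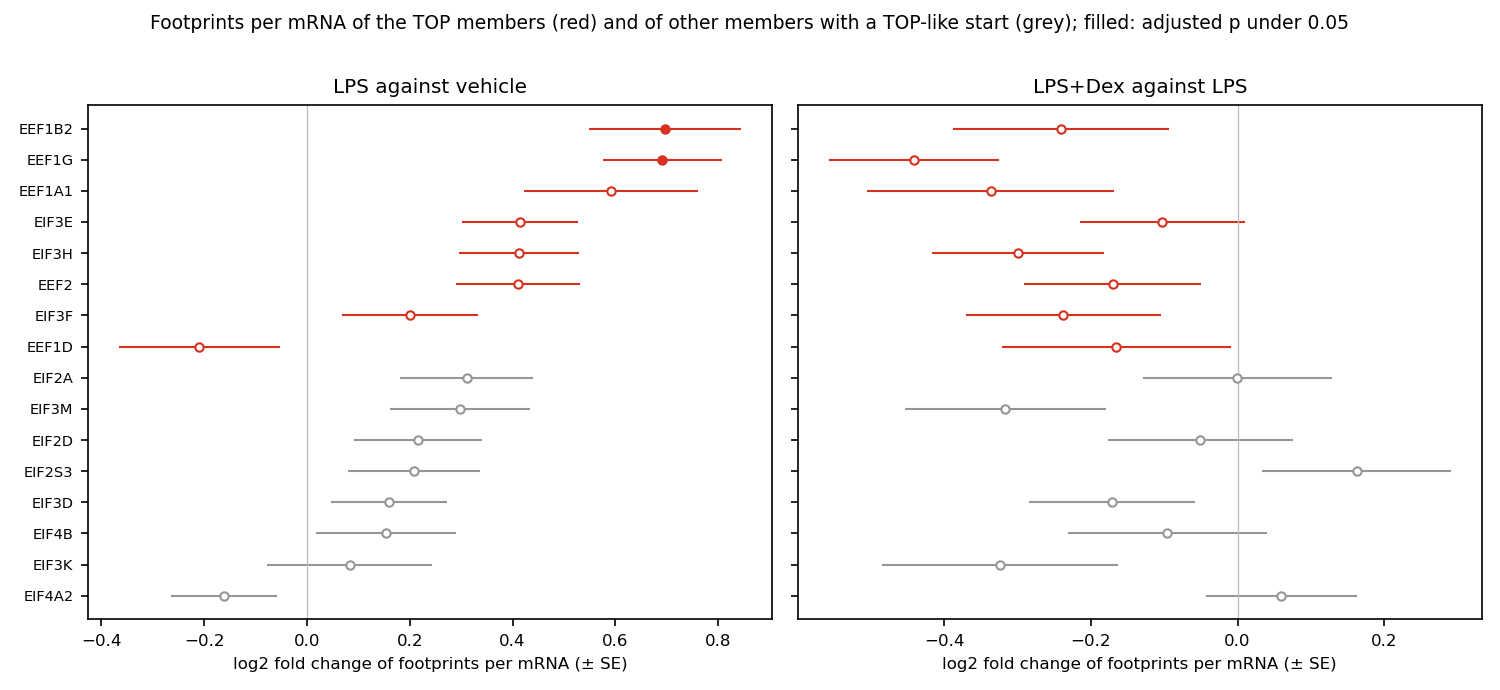
Log2 fold change of footprints per mRNA with its SE (x axis) for the 8 TOP members (red) and the 8 tested other members whose listed start has the TOP form (grey), with LPS against vehicle on the left and LPS+Dex against LPS on the right; filled points passed at an edgeR adjusted p under 0.05. With LPS, EEF1B2 and EEF1G are filled at 0.70 and 0.69 and EEF1D lies at -0.21, and with LPS+Dex no point is filled.

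The other members whose listed start has the TOP form were set beside those without it. The 8 of them that were tested (EIF2A, EIF2D, EIF2S3, EIF3D, EIF3K, EIF3M, EIF4A2 and EIF4B) had a median TE change of 0.18 with LPS against vehicle, 7 of 8 being positive and 0 called by edgeR. The 37 tested other members listed without it had a median of 0.00, 18 being positive. EIF4A2, whose listed start reads CTTTTC as printed above, had -0.16 ± 0.10. These are counts over members with no test of the difference.

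The eIF3 complex, the scaffold that holds the small subunit, its initiator tRNA and the mRNA together, rose broadly with LPS against vehicle. In footprints 11 of 13 tested subunits rose and 0 fell, with a median of 0.52, and in RNA 10 of 13 rose. Over all genes 25.4% were called higher in footprints and 28.6% in RNA. EIF3M had 659, 712, 793, 821 and 650 CPM of footprints with LPS, against 254, 319, 304, 296 and 314 CPM with vehicle. The groups lay far apart, at 1.29 ± 0.09 or 2.44-fold (edgeR adjusted p = 2.3e-08). Its mRNA stood at 684, 750, 658 and 647 CPM with LPS, against 376, 386, 282 and 305 CPM with vehicle, a rise of 1.02 ± 0.10 (edgeR adjusted p = 5.2e-07). The TOP subunits EIF3E and EIF3H rose in footprints by 0.79 ± 0.09 (edgeR adjusted p = 4.5e-06) and 0.68 ± 0.07 (edgeR adjusted p = 1.4e-06).

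EIF3E footprints were 470, 508, 556, 599 and 468 CPM with LPS, against 275, 302, 297, 322 and 307 CPM with vehicle. EIF3H footprints were 462, 468, 503, 502 and 422 CPM with LPS, against 274, 298, 295, 324 and 283 CPM with vehicle. EIF3F footprints were 66.9, 62.5, 57.6, 50.0 and 56.5 CPM with LPS, against 50.0, 42.8, 47.0, 45.2 and 45.7 CPM with vehicle. EIF3E and EIF3H did not overlap, while the lowest LPS library and the highest vehicle library of EIF3F met at 50.0 CPM. EIF3C shares nearly all of its sequence with EIF3CL, so its low counts are uncertain, and it rose in RNA (0.40 ± 0.14) but did not pass in footprints (0.84 ± 0.36, edgeR adjusted p = 0.063).

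All 8 factors of start codon selection and subunit joining rose in RNA with LPS against vehicle, and 7 of 8 rose in footprints. The shares of all genes called higher were 28.6% in RNA and 25.4% in footprints. EIF5 (chr14:103334237-103345025), which makes eIF2 hydrolyse its GTP at the start codon, had the largest RNA change of the members. Its mRNA stood at 607, 487, 711 and 697 CPM with LPS, against 215, 200, 294 and 284 CPM with vehicle, at 1.33 ± 0.15 or 2.52-fold (edgeR adjusted p = 2.7e-06). Its footprints stood at 393, 375, 440, 402 and 426 CPM with LPS, against 156, 172, 165, 189 and 174 CPM with vehicle, at 1.25 ± 0.12 or 2.38-fold (edgeR adjusted p = 4e-07). The groups were apart in both assays, and TE was -0.05 ± 0.19. EIF1 and EIF1B, which keep the scanning ribosome from starting at a wrong codon, rose by 0.98 ± 0.11 and 0.88 ± 0.07 in footprints, and EIF5B, the GTPase of subunit joining, by 0.97 ± 0.10. EIF1AD missed the test in footprints (0.16 ± 0.07, edgeR adjusted p = 0.063), and its RNA call was lost in 10 of 12 fits with a library left out (adjusted p 0.052 to 0.14) and without the libraries numbered 4 (adjusted p = 0.22). Reads of EIF1AX and EIF1AY, near-identical copies, could have been split between them.

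Of eIF2, the carrier of initiator tRNA, eIF2B, its exchange factor, and the eIF2-like factors EIF2A and EIF2D, 6 of 10 tested genes rose in footprints with LPS against vehicle. In RNA 6 rose and 1 fell. Over all genes 25.4% were called higher in footprints, and 28.6% higher and 33.6% lower in RNA. EIF2S1, the subunit that stress kinases phosphorylate, had 328, 368, 391, 400 and 317 CPM of footprints with LPS, against 164, 182, 171, 206 and 162 CPM with vehicle. The groups did not overlap, at 1.03 ± 0.09 (edgeR adjusted p = 2.6e-07), and its mRNA rose by 0.88 ± 0.08 (edgeR adjusted p = 4.7e-07). The 5 eIF2B subunits had smaller values. EIF2B5, the catalytic one, rose by 0.31 ± 0.08 in footprints and 0.42 ± 0.07 in RNA. EIF2B1 rose by 0.22 ± 0.08 in footprints (edgeR adjusted p = 0.024), a call lost in 4 of 15 fits with a library left out (adjusted p 0.050 to 0.065), and EIF2B2, EIF2B3 and EIF2B4 lay between -0.07 and 0.14 without passing. EIF2D, a factor of non-canonical initiation and recycling, was the gene that fell in RNA, by 0.22 ± 0.08 (edgeR adjusted p = 0.021). It lost that call under other library scaling (adjusted p = 0.060) and in 3 of 12 fits with a library left out (adjusted p 0.057 to 0.066). The EIF2D call was also lost with only the 2 treatments compared (adjusted p = 0.061) and without the libraries numbered 4 (adjusted p = 0.084).

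Of the cap-binding complex eIF4F with its homologs and helicase partners, 5 of 11 tested genes rose in RNA and 5 of 11 in footprints with LPS against vehicle. Over all genes 62.2% were called in RNA (28.6% higher) and 52.6% in footprints (25.4% higher). EIF4E, which binds the cap, did not pass in RNA (0.14 ± 0.10, edgeR adjusted p = 0.23) or in footprints (0.13 ± 0.10, edgeR adjusted p = 0.30). EIF4G1, the scaffold, rose by 0.49 ± 0.07 in RNA and 0.34 ± 0.09 in footprints. EIF4G2, a homolog that does not bind eIF4E, had 0.29 ± 0.14 in footprints, which did not pass, but passed with the replicate block (0.30 ± 0.06, edgeR adjusted p = 0.00019) and without the libraries numbered 4 (0.30 ± 0.06, 0.00015). EIF4G3 stood at 0.00 ± 0.06.

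Of the paralogous helicases that unwind leader structure, EIF4A1 passed in footprints with LPS against vehicle and EIF4A2 did not. EIF4A1 had 474, 493, 467, 641 and 427 CPM of footprints with LPS, against 290, 281, 271, 367 and 256 CPM with vehicle, a rise of 0.77 ± 0.14 (edgeR adjusted p = 0.00029). EIF4A2 had 201, 196, 198, 166 and 177 CPM with LPS, against 184, 177, 180, 166 and 204 CPM with vehicle. EIF4A1 groups lay apart, while EIF4A2 groups overlapped at 0.05 ± 0.08 (edgeR adjusted p = 0.64). In RNA both rose, EIF4A1 by 0.72 ± 0.06 and EIF4A2 by 0.24 ± 0.06 (edgeR adjusted p = 0.0019). The ratio of EIF4A1 to EIF4A2 footprints was 2.35, 2.51, 2.36, 3.86 and 2.41 in the LPS libraries, against 1.58, 1.58, 1.51, 2.22 and 1.26 in the vehicle libraries. The ratio is not corrected for length and serves only to set libraries side by side. Number 4 was highest in each treatment, and all LPS libraries lay above all vehicle libraries. Reads shared by the paralogs are uncertain. EIF4A3, the helicase of the exon junction complex, rose by 0.75 ± 0.06 in footprints and 0.66 ± 0.06 in RNA.

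An eIF4E-binding repressor and the kinase of EEF2 gave the 2 largest falls among the members with LPS against vehicle, in RNA and in footprints. EIF4EBP1, which holds eIF4E away from eIF4G until mTORC1 phosphorylates it, had 25.6, 26.7, 25.2 and 21.6 CPM of mRNA with LPS, against 53.5, 48.8, 39.6 and 44.5 CPM with vehicle. Its footprints stood at 21.8, 22.2, 18.8, 11.4 and 25.5 CPM with LPS, against 49.6, 44.2, 48.6, 27.1 and 61.4 CPM with vehicle. The LPS libraries lay below the vehicle libraries in both assays, with number 4 the lowest footprint library of each group. It fell by 0.91 ± 0.10 in RNA (edgeR adjusted p = 2.9e-06) and by 1.21 ± 0.21 in footprints (edgeR adjusted p = 0.00023). EIF4EBP2 and EIF4EBP3 did not pass in either assay at means of 0.573 to 6.58 CPM with LPS. EIF4EBP3 shares exons with a readthrough gene and is uncertain. EIF4ENIF1, which shuttles eIF4E into the nucleus, rose by 0.44 ± 0.07 in RNA and 0.36 ± 0.08 in footprints.

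EEF2K (chr16:22206278-22288738), the kinase that inactivates eEF2 by phosphorylation and is itself restrained by mTORC1 signalling, fell most among the members. Its footprints stood at 14.8, 14.1, 12.2, 11.6 and 14.0 CPM with LPS, against 48.9, 46.5, 49.2, 31.3 and 45.5 CPM with vehicle. Its mRNA stood at 23.5, 19.1, 21.7 and 18.6 CPM with LPS, against 35.0, 34.1, 57.0 and 51.8 CPM with vehicle. All LPS libraries lay below all vehicle libraries, by 1.73 ± 0.14 on the log2 scale in footprints (0.301-fold, edgeR adjusted p = 7.8e-08) and 1.11 ± 0.16 in RNA (0.465-fold, edgeR adjusted p = 4.1e-05). Of the methyltransferases of elongation factors, EEF1AKMT3, which modifies a lysine of eEF1A, rose by 0.76 ± 0.09 in RNA (edgeR adjusted p = 7.5e-06) and 0.64 ± 0.16 in footprints (edgeR adjusted p = 0.0027). EEF1AKMT1 fell by 0.25 ± 0.10 in footprints (edgeR adjusted p = 0.043), a call lost in 10 of 15 fits with a library left out (adjusted p 0.055 to 0.14).

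**Figure D4:**
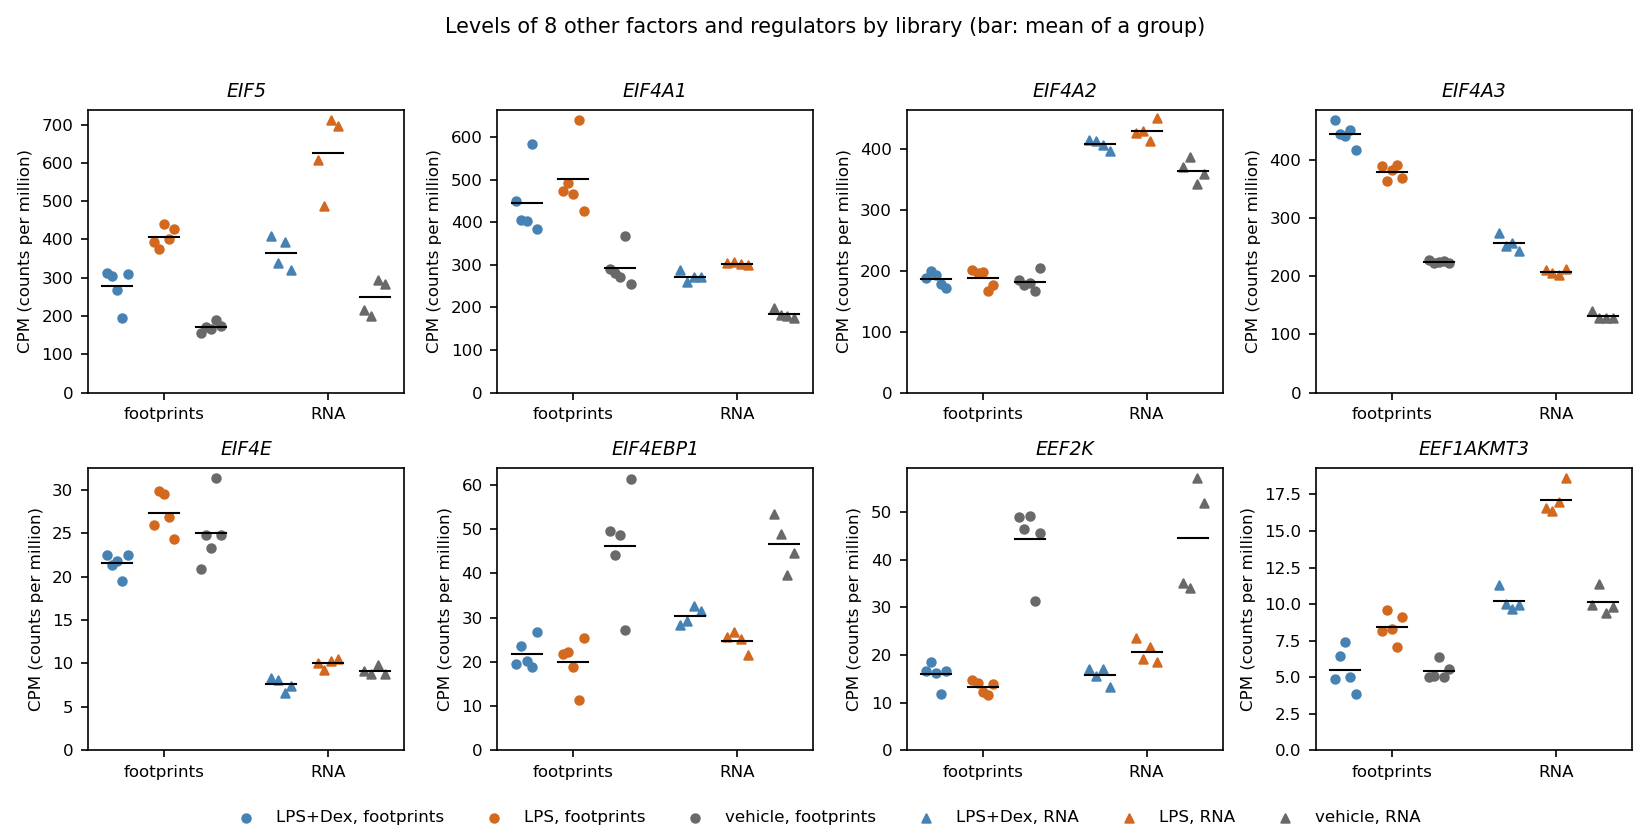
CPM of 8 other factors and regulators in every library, drawn as for the TOP members: footprints (circles) left of RNA (triangles), LPS+Dex, LPS and vehicle from left to right, bars at group means. EEF2K footprints lie between 11.6 and 14.8 CPM with LPS and between 31.3 and 49.2 CPM with vehicle, while the EIF4A2 footprints of all groups lie between 166 and 204 CPM.

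With LPS+Dex against LPS, 10 of 62 members were called in footprints and 9 of 62 in RNA, near or below the shares over all genes (17.1% and 30.9%). This comparison shares its LPS libraries with the one above, so an opposite sign in both is partly set by them. In RNA 5 rose and 4 fell, where 15.5% of all genes were called higher and 15.4% lower. With DESeq2's scaling in edgeR the split was 2 higher and 5 lower. In footprints 2 rose and 8 fell, where 9.08% of all genes were called higher and 7.99% lower. With the replicate block 3 rose and 20 fell, where 30.9% of all genes were called, and without the libraries numbered 4 there were 3 and 19, where 31.5% were called. The median member stood at -0.13 in footprints and -0.04 in RNA, against 0.02 and 0.01 over all genes.

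Of the TOP members, 3 of 8 fell in footprints with LPS+Dex against LPS and all 8 had a negative value, with a median of -0.25 against -0.11 for the other members. In RNA edgeR called 0 of the 8, with 1 at an unadjusted p under 0.05, and DESeq2 called 0. EEF1G footprints stood at 135, 155, 137, 161 and 135 CPM with LPS+Dex, against 173 to 199 CPM with LPS. EEF1A1 footprints stood at 212, 240, 207, 184 and 229 CPM with LPS+Dex, against 251 to 361 CPM with LPS. EIF3H footprints stood at 405, 395, 389, 409 and 406 CPM with LPS+Dex, against 422 to 503 CPM with LPS. In these genes every LPS+Dex library lay below every LPS library. EEF1G fell by 0.35 ± 0.07 (edgeR adjusted p = 0.0033), EEF1A1 by 0.49 ± 0.13 (0.019) and EIF3H by 0.23 ± 0.07 (0.032). The EEF1A1 call was lost without LPS library 5 or LPS+Dex library 3 (adjusted p 0.053 and 0.052), and the EIF3H call was lost in 7 of the 15 fits with a library left out (adjusted p 0.053 to 0.081).

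EEF2 footprints stood at 4790, 4520, 4800, 4690 and 4210 CPM with LPS+Dex, against 5170 to 6070 CPM with LPS, and the groups did not overlap. The change of -0.27 ± 0.10 did not pass (edgeR adjusted p = 0.075), but did with the replicate block (edgeR adjusted p = 0.0033), as did EEF1B2 (-0.29 ± 0.09, 0.028) and EIF3E (-0.22 ± 0.06, 0.015). Without the libraries numbered 4 they stood at -0.29 ± 0.06 for EEF2 (edgeR adjusted p = 0.00073), -0.32 ± 0.09 for EEF1B2 (0.0079) and -0.21 ± 0.07 for EIF3E (0.015). EEF1B2 stood at 106, 89.1, 78.4, 90.2 and 97.0 CPM and EIF3E at 443, 466, 402, 513 and 409 CPM with LPS+Dex, and both overlapped the LPS libraries. In TE edgeR called 0 of 62 members, where 0.0502% of all genes were called (0.0419% higher and 0.00837% lower), and 5 members had an unadjusted p under 0.05. DESeq2 also called 0. All 8 TOP members had a negative TE value, with a median of -0.24 against -0.06 for the other members. With the block EEF1G was called, at -0.45 ± 0.10 (edgeR adjusted p = 0.029), where 0.553% of all genes were called, but not without the libraries numbered 4 (-0.40 ± 0.12, edgeR adjusted p = 0.28).

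Among the initiation factors EIF5 fell with LPS+Dex against LPS in both assays. Its mRNA stood at 410, 338, 394 and 320 CPM with LPS+Dex, against 487 to 711 CPM with LPS, and its footprints at 311, 304, 268, 194 and 309 CPM with LPS+Dex, against 375 to 440 CPM with LPS. No LPS+Dex library reached an LPS library, at -0.78 ± 0.15 in RNA (edgeR adjusted p = 0.00091) and -0.55 ± 0.11 in footprints (edgeR adjusted p = 0.003). EIF4E mRNA stood at 8.36, 8.08, 6.56 and 7.41 CPM with LPS+Dex, against 9.30 to 10.5 CPM with LPS. Its footprints stood at 22.5, 21.3, 21.8, 19.5 and 22.5 CPM with LPS+Dex, against 24.3 to 29.8 CPM with LPS. The groups were apart in both assays, and EIF4E fell by 0.40 ± 0.10 in RNA (edgeR adjusted p = 0.0072) and 0.34 ± 0.10 in footprints (edgeR adjusted p = 0.026). The EIF4E footprint call was lost without LPS libraries 2 or 3 or LPS+Dex libraries 2 or 4 (adjusted p 0.052 to 0.071). Its RNA call was lost without the libraries numbered 4 (adjusted p = 0.067). EIF4G2 also fell in RNA, with 2017, 1904, 1974 and 1812 CPM with LPS+Dex, against 2131 to 2294 CPM with LPS, without overlap. The EIF4G2 call was lost in 4 of 12 fits with a library left out (adjusted p 0.051 to 0.06). It was also lost without the libraries numbered 4 (adjusted p = 0.16).

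EIF3M fell in footprints by 0.31 ± 0.09 (edgeR adjusted p = 0.024), with 600, 598, 528, 606 and 591 CPM with LPS+Dex, against 650 to 821 CPM with LPS. The call was lost without LPS library 3 or LPS+Dex library 3 (adjusted p 0.066 and 0.067), and its mRNA value of 0.00 ± 0.09 did not pass. EIF1B fell in footprints by 0.32 ± 0.07 (edgeR adjusted p = 0.0054). EEF1AKMT3 mRNA stood at 11.3, 9.99, 9.70 and 9.91 CPM with LPS+Dex, against 16.4 to 18.6 CPM with LPS, without overlap. It fell by 0.75 ± 0.09 in RNA (edgeR adjusted p = 2.9e-05) and by 0.62 ± 0.16 in footprints (edgeR adjusted p = 0.012).

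The replicate block added calls of lower footprints for further members, where 30.9% of all genes were called in that fit. These were EIF1 (-0.28 ± 0.09, edgeR adjusted p = 0.021), EIF4A1 (-0.17 ± 0.05, 0.017), EIF4G2 (-0.21 ± 0.06, 0.0071), EIF2S2, the subunit of eIF2 that contacts eIF5 (-0.22 ± 0.08, 0.033), and the eIF3 subunits EIF3A, EIF3D, EIF3I and EIF3J (-0.25 to -0.16). EIF5A was added among the elongation factors (-0.23 ± 0.07, 0.020). Without the libraries numbered 4, EIF1 (-0.24 ± 0.09, edgeR adjusted p = 0.045), EIF4A1 (-0.17 ± 0.06, 0.037), EIF4G2 (-0.21 ± 0.06, 0.0095), EIF2S2 (-0.28 ± 0.08, 0.0097), EIF3A (-0.18 ± 0.06, 0.022), EIF3D (-0.15 ± 0.06, 0.04999), EIF3I (-0.22 ± 0.06, 0.0075) and EIF5A (-0.27 ± 0.07, 0.0049) were called lower in footprints, and EIF3J was not called.

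The rises with LPS+Dex against LPS were fewer than the falls in footprints, but not in RNA. EIF4A3 mRNA stood at 274, 253, 258 and 244 CPM with LPS+Dex, against 202 to 212 CPM with LPS. Its footprints stood at 470, 445, 441, 452 and 418 CPM with LPS+Dex, against 365 to 391 CPM with LPS. The LPS+Dex libraries were above in both assays, by 0.31 ± 0.06 in RNA (edgeR adjusted p = 0.00092) and 0.23 ± 0.06 in footprints (edgeR adjusted p = 0.011). EIF2B4, a regulatory eIF2B subunit, rose by 0.36 ± 0.10 in RNA (edgeR adjusted p = 0.013) and 0.26 ± 0.08 in footprints (edgeR adjusted p = 0.037). The EIF2B4 RNA call was lost without the libraries numbered 4 (adjusted p = 0.12), and its footprint call in 10 of 15 fits with a library left out (adjusted p 0.052 to 0.12).

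EIF4EBP1 mRNA stood at 28.4, 29.2, 32.6 and 31.5 CPM with LPS+Dex, against 21.6 to 26.7 CPM with LPS, without overlap, and rose by 0.29 ± 0.10 (edgeR adjusted p = 0.042). That call was lost in 7 of 12 fits with a library left out (adjusted p 0.051 to 0.13) and without the libraries numbered 4 (adjusted p = 0.25). EEF1A2 (0.41 ± 0.15) and EIF1AD (0.23 ± 0.08) rose in RNA at an edgeR adjusted p of 0.048 each, and both lost the call under other library scaling. Each also lost it in 7 of 12 fits with a library left out (edgeR adjusted p 0.051 to 0.15 for EEF1A2 and 0.06 to 0.14 for EIF1AD). Without the libraries numbered 4 the edgeR adjusted p was 0.27 for EEF1A2 and 0.098 for EIF1AD. EEF2K had opposite signs, with -0.40 ± 0.17 in RNA (edgeR adjusted p = 0.087) and 0.26 ± 0.14 in footprints (edgeR adjusted p = 0.23), neither of which passed. EEF2K passed in footprints with the block (0.26 ± 0.08, edgeR adjusted p = 0.024) and without the libraries numbered 4 (0.31 ± 0.08, edgeR adjusted p = 0.0049).

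**Figure D5:**
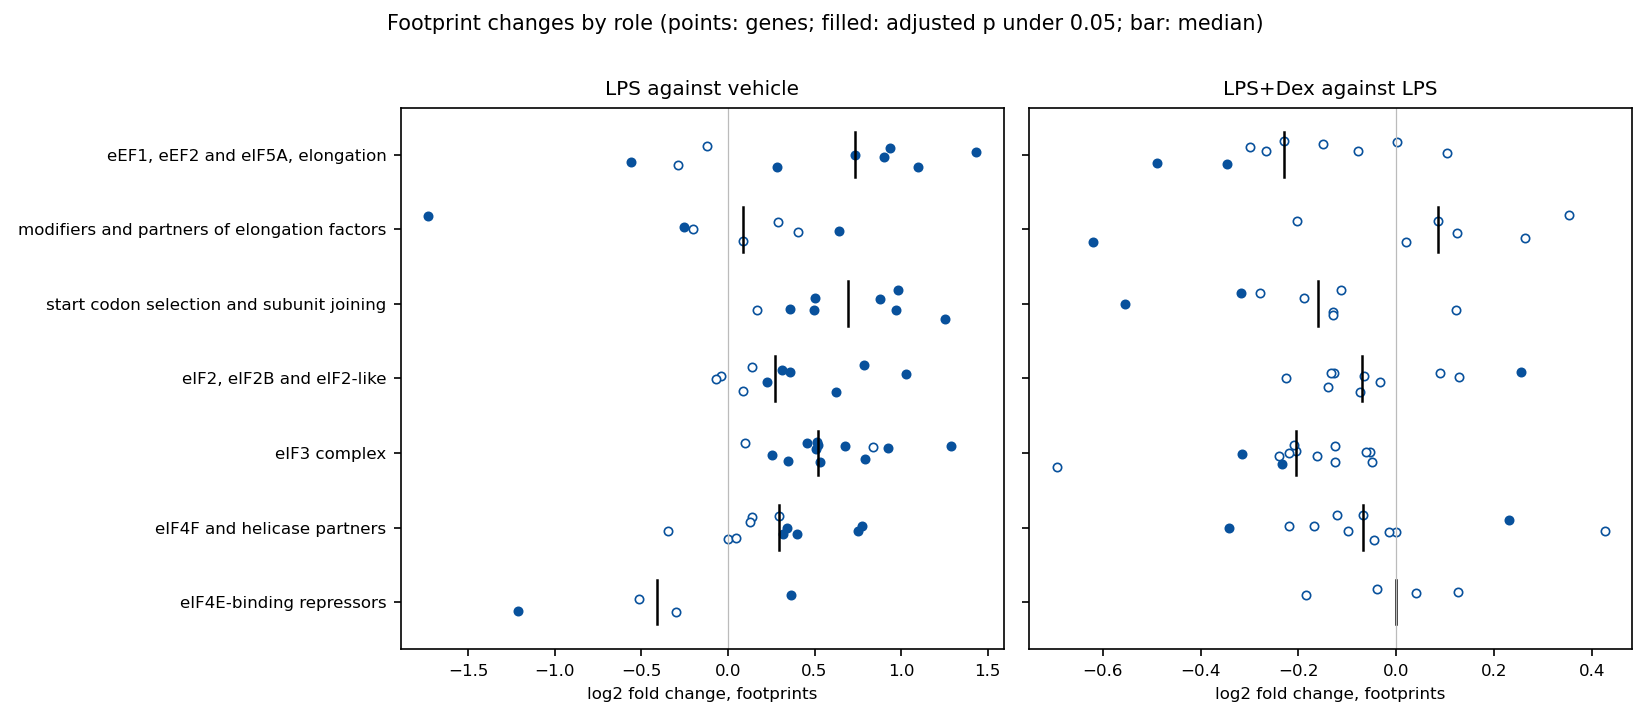
Log2 fold change in footprints (x axis) of every tested member by role (rows), with LPS against vehicle on the left and LPS+Dex against LPS on the right; filled points passed at an edgeR adjusted p under 0.05 and bars are medians. The eIF3 row has a median of 0.52 with 11 of 13 points filled on the left, and -0.21 with 2 of 13 filled on the right.

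LPS+Dex against vehicle gave counts near those of LPS against vehicle, with which it shares the vehicle libraries. In RNA 38 of 62 members rose and 5 fell with LPS+Dex against vehicle, where 60.2% of all genes were called (29.2% higher and 31% lower). In footprints 34 rose and 3 fell, where 46.4% of all genes were called (24.4% higher and 22% lower). All 8 TOP members rose in RNA (median 0.37) and 7 of 8 in footprints (median 0.56), EEF1D being the exception at 0.13 ± 0.06 (edgeR adjusted p = 0.088). Without the libraries numbered 4, EEF1D and EIF3F lost the RNA call (adjusted p 0.057 and 0.069). EIF4A3 rose by 0.98 ± 0.06 in footprints (edgeR adjusted p = 4.1e-09), with every LPS+Dex library above 229 CPM, the highest vehicle library. EEF2K fell by 1.47 ± 0.14 in footprints (edgeR adjusted p = 5.3e-07) and by 1.50 ± 0.17 in RNA (edgeR adjusted p = 3.1e-06). Its LPS+Dex libraries stood at 16.6, 18.5, 16.3, 11.9 and 16.7 CPM in footprints and 17.1, 15.6, 17.0 and 13.2 CPM in RNA, all below the vehicle libraries.

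EEF1AKMT3 lay at the vehicle level with LPS+Dex, at 0.01 ± 0.09 in RNA and 0.02 ± 0.16 in footprints, and its groups overlapped. In TE edgeR called 0 of 62 members with LPS+Dex against vehicle, where 1.93% of all genes were called (1.32% higher and 0.611% lower), 8 had an unadjusted p under 0.05, and DESeq2 called 0. The TOP members had a median TE change of 0.25, against -0.02 for the others. With the replicate block 4 members were called, where 12.2% of all genes were called. EEF1B2 (0.47 ± 0.13, edgeR adjusted p = 0.02), EIF3E (0.31 ± 0.09, 0.032) and EIF3L (0.27 ± 0.08, 0.028) rose and EEF1D (-0.39 ± 0.13, 0.044) fell, and without the libraries numbered 4 edgeR called 0, where 4.46% of all genes were called.

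Genes that work beside these factors were counted by list. With LPS against vehicle, 25.4% of all genes were called higher and 27.2% lower in footprints, and 28.6% higher in RNA. With LPS+Dex against LPS, 7.99% of all genes were called lower in footprints. Of 16 other TOP mRNAs, such as RPS6 and TPT1, 14 rose in footprints and 9 in RNA with LPS against vehicle, and 6 fell in footprints with LPS+Dex against LPS. RPS6, a small subunit protein, rose by 0.73 ± 0.08 in footprints while its RNA value of 0.22 ± 0.13 did not pass. Of 8 termination and recycling factors, 6 rose and 1 fell in footprints with LPS against vehicle, with ETF1, the release factor that reads stop codons, at 0.91 ± 0.07 and GSPT1, its GTPase partner, at 0.95 ± 0.08. Of 13 tested partners of the cap complex, 4 rose and 2 fell in footprints with LPS against vehicle, or 46.2% against the 52.6% of all genes. PABPC1, the poly(A)-binding protein whose mRNA is itself a TOP mRNA, rose by 0.79 ± 0.08 in footprints and by 0.44 ± 0.11 in TE. MKNK2, a kinase of eIF4E, fell by 1.47 ± 0.29 in footprints and by 1.14 ± 0.08 in RNA with LPS against vehicle.

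Of the mTORC1 list, 4 were higher and 6 lower of 24 in footprints and 6 higher and 6 lower of 25 in RNA with LPS against vehicle, or 41.7% and 48%, against 52.6% and 62.2% of all genes. SESN1, an amino acid sensor that restrains mTORC1, fell by 2.38 ± 0.14 in footprints with LPS against vehicle and rose by 2.49 ± 0.14 with LPS+Dex against LPS. DDIT4, another restraint on mTORC1 and a known glucocorticoid target, rose by 2.33 ± 0.15 in footprints with LPS against vehicle and by 0.96 ± 0.14 with LPS+Dex against LPS. Of 12 eIF2 kinases, phosphatases and their targets, 3 rose and 4 fell in footprints with LPS against vehicle, PPP1R15B, a subunit of the eIF2 phosphatase, rising by 1.77 ± 0.21. Of 9 genes of hypusine and diphthamide synthesis, which modify eIF5A and eEF2, 2 rose and 1 fell in footprints. Over all genes 25.4% were called higher and 27.2% lower in footprints with LPS against vehicle, and 9.08% higher and 7.99% lower with LPS+Dex against LPS. With LPS+Dex against LPS the footprint counts, higher and lower, were 0 and 2 for termination, 1 and 3 for the cap partners, 4 and 1 for mTORC1 and 0 and 2 for eIF2 kinases, while edgeR called 0 for hypusine and diphthamide synthesis. The part of these genes in the changes of the translation factors was not tested.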

How the data were processed

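Ribo-seq footprints and poly(A) RNA-seq were counted per gene by the authors, who deposited raw counts without normalization, 1 table an assay with 15 and 12 libraries. Per the submitters' processing notes, Bowtie2 2.4.5, STAR 2.7.10a, featureCounts 2.0.1 and the build GRCh38 were used. The sources used here do not give the annotation, the counted feature, the use of strand or the rule for multi-mapping reads, so counts of near-identical copies may be shifted between genes. The deposited counts were analysed in R 4.3.3 with edgeR 4.0.16.

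Genes passed filterByExpr (minimum count 10, minimum total 15), libraries were scaled by TMM within each assay, and the quasi-likelihood test was fitted over all 3 treatments, with Benjamini-Hochberg adjustment over all genes and calls at an adjusted p under 0.05. TE subtracts the change in RNA from that in footprints, fitted jointly over genes passing both filters. SE is the log2 fold change divided by the square root of F. CPM use TMM-scaled library sizes. Names came from a table of gene identifiers, which matched 20407 of 20453 genes. The table of 35116 promoters came from RefSeq (GRCh38.p14), and none is printed for EEF1D, EIF3E and EIF3H.

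Members and lists were chosen with earlier results of these data known. Named members were the 8 TOP genes, sets of paralogs and partners, the 4 largest called rises and falls per comparison at 5 CPM or more, and the largest called rise and fall per role, 42 in all. EIF3L and the partner genes were named after their values were seen. No libraries of a group agreed within sampling noise, the lowest chi-square per degree of freedom being 3.25. Deviations of same-numbered footprint libraries correlated over 0.1, the limit set for pairing, in 15 of 15 pairs (0.182 to 0.791), against 34 of 60 pairs with different numbers. Without number 4 it was 3 of 12 against 2 of 36, so number 4 carries most of the pairing. The fit with the number as a block is given where it changes a call. Alternatives were DESeq2 1.42.0, its size factors, no filter, the block, only the treatments compared, leaving out number 4 and leaving out each library.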

Additional observations from a re-analysis of the deposited data

Results flagged for a closer look

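In 10 of 123 groups of 4 or 5 libraries checked, the highest or lowest library stood far from the others by Dixon's test, where chance gives about 1 group in 20, or 6.15 groups. The members' share of footprint counts was lowest in the libraries numbered 4 of all treatments, at 0.988% with LPS+Dex (next 1.57%), 1.12% with LPS (next 1.66%) and 1.11% with vehicle (next 1.36%). EIF3M footprints were lowest at 528 CPM in LPS+Dex library 3 (next 591 CPM). EEF2K footprints were lowest at 31.3 CPM in vehicle library 4 (next 45.5 CPM), and EIF5A footprints at 130 CPM in the same library (next 152 CPM). In RNA, EEF1B2 was lowest at 77.7 CPM in LPS+Dex library 4 (next 84.7 CPM) and EIF5A at 77.7 CPM in LPS+Dex library 3 (next 89.8 CPM). EIF3E mRNA was highest at 280 CPM in vehicle library 4 (next 274 CPM), and EIF4A3 mRNA was highest at 140 CPM in vehicle library 1 (next 129 CPM).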

How the results depend on the processing

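Counts of called members were recomputed under 6 other settings and with each library left out. In TE with LPS against vehicle the count of 2 became 8 with the replicate block, 8 without the libraries numbered 4 and 7 with DESeq2. In footprints with LPS+Dex against LPS the count of 10 became 23 with the replicate block, 22 without the libraries numbered 4 and 18 with DESeq2. In TE with the replicate block the count of 0 became 1 with LPS+Dex against LPS and 4 with LPS+Dex against vehicle. In RNA with LPS+Dex against LPS the count of 9 became 3 without the libraries numbered 4. The cause of these shifts was not tested. The shares of all genes called with the block and without number 4 in footprints and TE stand beside the results. Those for DESeq2 and for the RNA refits are not reported here. For these fits the counts given here do not show whether the members or all genes shifted. With a library left out, the counts in RNA ranged from 41 to 44 (LPS against vehicle), 5 to 10 (LPS+Dex against LPS) and 38 to 45 (LPS+Dex against vehicle), and in footprints from 39 to 43, 6 to 13 and 37 to 40. The lowest RNA count of LPS+Dex against LPS came without LPS library 3 or LPS+Dex library 4, and the lowest footprint count, 6, without LPS library 3 or LPS+Dex library 3. In TE the ranges were 2 to 3, 0 to 0 and 0 to 0. No named value reversed its direction while called. RNA libraries with the same number correlated over 0.1 in 7 of 12 pairs, against 13 of 36 pairs with different numbers. Without number 4 it was 6 of 9 against 5 of 18. The replicate block gave 12 calls in RNA with LPS+Dex against LPS, and in TE it was fitted within each assay. In footprints the replicate block also called EEF1A2 lower with LPS against vehicle (-0.30, adjusted p = 0.022) and with LPS+Dex against vehicle (-0.37, 0.0077), and EIF2B2 (0.18, 0.022) and EIF2B4 (0.19, 0.011) higher with LPS+Dex against vehicle. Of the genes named, it changed no other call in footprints or TE than these and those given beside the results. In footprints EIF3C and EIF4EBP3 had group means under 1 CPM, where counting error is a larger share of the value.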
